A study of Mus musculus with 11 samples.

Results

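The TOB/BTG family is described here by 5 of its genes (*Tob1*, *Tob2*, *Btg1*, *Btg2* and *Btg3*) together with *Cnot7* and *Cnot8*, the genes of the deadenylases these proteins bind, 7 of the 54418 genes in the table. The 7 genes were chosen by name with results of these mice against wt mice known. Their levels against wt mice are therefore a description, given with standard errors and without p-values, and nothing is supported by them. The samples are RNA-seq libraries of thymocytes, the T cell precursors of the thymus, 1 library each from 4 wild-type (wt) mice, 4 *Zmat3*-/- mice and 3 *Puma*-/-*p21*-/-*Zmat3*-/- mice (TKO). All 11 mice were 8 to 12 weeks old, untreated and on a C57BL/6-WEHI background. *Zmat3*-/- mice lack the RNA-binding protein ZMAT3 in every tissue, and TKO mice carry the same *Zmat3* deletion and also lack PUMA, which triggers apoptosis, and p21, which arrests the cell cycle. The 3 genes are targets of the transcription factor TRP53, and the comparison asks what their loss changes in the transcripts of thymocytes.

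TOB and BTG proteins slow cell division. Their shared N-terminal domain binds CNOT7 or CNOT8, the interchangeable catalytic subunits through which the CCR4-NOT complex shortens the poly(A) tails of mRNAs, and the bound mRNAs are then decapped and degraded. TOB1 and TOB2 also bind the poly(A)-binding protein PABPC1, which places the deadenylase on the tail. In the T cell lineage BTG1 and BTG2 keep naive cells quiescent, TOB1 restrains T cell activation, and *Btg2* is itself a TRP53 target and an early-response gene.

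The promoters of 4 members are shown first: *Tob1* and *Tob2*, which had the higher levels in mutant mice, *Btg2*, which had the lower, and *Btg1*, the close paralogue of *Btg2*. Each runs 5′ to 3′ along the gene's strand from 250 bases before the RefSeq start site to 50 bases after it on GRCm38.p6. Capitals mark TGACG, the core of the CRE site that CREB and ATF proteins bind, its reverse complement, the full CRE TGACGTCA, and TATAAA. *Tob1* lies at chr11:94211204-94211503 on the plus strand, *Tob2* at chr15:81858277-81858576 on the minus strand, *Btg1* at chr10:96616751-96617050 on the plus strand and *Btg2* at chr1:134079106-134079405 on the minus strand.
*Tob1*: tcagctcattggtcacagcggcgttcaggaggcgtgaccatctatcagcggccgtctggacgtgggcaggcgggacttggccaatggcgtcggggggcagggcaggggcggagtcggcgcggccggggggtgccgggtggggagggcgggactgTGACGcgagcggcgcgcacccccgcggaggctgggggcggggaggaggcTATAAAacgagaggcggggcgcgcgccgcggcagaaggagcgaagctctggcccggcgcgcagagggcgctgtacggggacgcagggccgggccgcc
*Tob2*: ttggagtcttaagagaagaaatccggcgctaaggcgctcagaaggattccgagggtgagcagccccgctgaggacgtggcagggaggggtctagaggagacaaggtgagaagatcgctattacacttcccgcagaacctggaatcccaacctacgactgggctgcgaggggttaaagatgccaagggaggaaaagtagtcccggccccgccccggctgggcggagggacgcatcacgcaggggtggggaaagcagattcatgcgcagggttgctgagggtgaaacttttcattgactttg
*Btg1*: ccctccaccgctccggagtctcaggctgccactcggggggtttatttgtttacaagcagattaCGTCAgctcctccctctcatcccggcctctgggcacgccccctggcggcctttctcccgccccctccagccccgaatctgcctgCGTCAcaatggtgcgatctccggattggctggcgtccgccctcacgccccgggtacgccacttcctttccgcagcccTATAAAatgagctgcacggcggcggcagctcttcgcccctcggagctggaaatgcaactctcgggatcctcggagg
*Btg2*: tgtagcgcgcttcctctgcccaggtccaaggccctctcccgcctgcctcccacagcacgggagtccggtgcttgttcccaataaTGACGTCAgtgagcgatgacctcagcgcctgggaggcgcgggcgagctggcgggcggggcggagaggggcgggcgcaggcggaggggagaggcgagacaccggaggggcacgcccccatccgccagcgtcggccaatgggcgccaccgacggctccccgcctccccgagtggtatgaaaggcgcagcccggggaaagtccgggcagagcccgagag
With positions counted from the start site and given for the first base, the *Tob1* promoter holds TGACG at −96 and TATAAA at −47. The *Btg1* promoter holds TGACG on the opposite strand at −187 and −103 and TATAAA at −26. The *Btg2* promoter holds a full CRE at −166, which contains the core on both strands, and no TATAAA. None of these letters occurs in the *Tob2* window. Among the windows not shown, TGACG lies at 36 and −224 in those of *Cnot8* start sites 2 and 3, and the *Btg3* windows do not hold it. RefSeq places the *Tob2* start 470 bases inside the GENCODE gene, whereas the start of *Tob1* is the same in both. Of 32851 promoter windows of this length, 1.79% hold the full CRE, 20.8% its core and 13.6% TATAAA on either strand. An AP-1 site (TGANTCA, in 7.81% of windows), a CArG box (1.63%) and a p53 half-element (8.36%) were searched on both strands and match none of the windows of the members. CCAAT (37.4%) is found in the *Tob1*, *Btg1* and *Btg2* windows, and CCGGAA (14.9%) in none of the 4 shown. RefSeq windows were found for 6 of the 7 members, the exception being *Cnot7*.

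The libraries held 17669715 to 80207003 counts, and the targeted *Zmat3* was counted at 5.34 to 6.85 CPM (counts scaled by library size and TMM factors) in *Zmat3*-/- mice, 7.78 to 8.25 CPM in TKO mice and 9.87 to 12.2 CPM in wt mice 1 and 2 but 26.8 CPM in both wt mice 3 and 4. *Bbc3*, which encodes PUMA, had 15.3 to 19.8, 12.9 to 15.2 and 16.8 to 20.1 CPM in the same order, and *Cdkn1a*, which encodes p21, had 4.77 to 8.53 and 2.49 to 3.52 CPM in the mutants, 8.20 and 10.4 CPM in wt mice 1 and 2, and 3.53 and 4.15 CPM in wt mice 3 and 4. All 11 thymocyte markers listed were counted in every group, with a summed level of 12100 to 16910 CPM, against 216 to 475 CPM for 8 myeloid, 2.62 to 31.9 for 5 neutrophil, 33.9 to 80.0 for 5 B cell, 191 to 281 for 10 thymic stroma and 815 to 7914 for 5 erythroid markers. No gene of these 6 lists was at 0 in a whole group, and the main pairwise edgeR fits with all mice called none of those tested in any comparison. The wt libraries fell into 2 pairs. Across genes, log2 CPM correlated at 0.983 within the pair of wt mice 1 and 2 and at 0.984 within the pair of wt mice 3 and 4, but across the pairs only at 0.890 to 0.922, against 0.986 to 0.992 among *Zmat3*-/- and 0.972 to 0.985 among TKO mice. The pairs also differed in *Xist*, which was at 485 and 632 CPM in the first pair and at 1.83 and 2.83 CPM in the second. *Xist* was high in TKO mouse 1 and in *Zmat3*-/- mice 1 and 2 as well, and the labels give no sex. Each member's range in the first wt pair lay apart from its range in the second, so the members' fold changes against wt mice, and the medians of the decay, early-response, quiescence and proliferation lists, are given below with and without each pair.

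*Tob1* and *Tob2* were both higher in thymocytes of every *Zmat3*-/- and every TKO mouse than in any wt mouse. *Tob1*, on chromosome 11 from 94211454 to 94215495 (ENSMUSG00000037573.5), had 22.2, 21.9, 19.8 and 18.2 CPM in wt mice 1 to 4. It had 45.1, 45.1, 46.9 and 48.2 CPM in *Zmat3*-/- mice 1 to 4 and 52.96, 48.48 and 58.56 CPM in TKO mice 1 to 3. The lowest *Zmat3*-/- mouse stood above the highest wt mouse by more than the whole wt range, and all 3 TKO mice stood above the 4 *Zmat3*-/- mice. The log2 fold change (log2FC) of *Tob1* from edgeR was 1.18 (standard error 0.0909, a 2.27-fold difference) in *Zmat3*-/- against wt mice and 1.33 (standard error 0.118, 2.52-fold) in TKO against wt mice. In bulk RNA, more transcript per cell cannot be told apart from a change in the mixture of cells.

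*Tob2*, the TOB paralogue on chromosome 15 from 81848272 to 81858796 (ENSMUSG00000048546.8), had 65.7, 69.2, 81.3 and 79.9 CPM in wt mice 1 to 4. In *Zmat3*-/- mice it had 190.9, 199.2, 235.5 and 228.3 CPM, and in TKO mice 219.3, 202.2 and 287.6 CPM. Wt mice were apart from both mutant groups, whose ranges overlapped each other. The log2FC was 1.53 (standard error 0.126, 2.89-fold) in *Zmat3*-/- and 1.62 (standard error 0.144, 3.08-fold) in TKO against wt mice, which are the same 4 mice in both comparisons.

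*Btg2* was lower in every mutant mouse than in any wt mouse. This gene, on chromosome 1 from 134075170 to 134079120 (ENSMUSG00000020423.6), had 515.6, 522.8, 484.4 and 443.8 CPM in wt mice, 356.5, 353.6, 350.7 and 373.2 CPM in *Zmat3*-/- mice and 340.1, 367.9 and 363.4 CPM in TKO mice. The highest mutant mouse, at 373.2 CPM, lay below the lowest wt mouse, and the ranges of the 2 mutant groups overlapped. The log2FC was −0.45 (standard error 0.0961) in *Zmat3*-/- and −0.50 (standard error 0.140) in TKO against wt mice, and neither passed the threshold of an adjusted p under 0.05 in edgeR. DESeq2, which called 8.04% of all genes in *Zmat3*-/- and 2.87% in TKO against wt mice, and an edgeR fit of all 3 genotypes together, which called 1.77% and 1.63%, both called *Btg2* lower in both comparisons. *Btg1*, the close paralogue of *Btg2* on chromosome 10 from 96617006 to 96622809 (ENSMUSG00000036478.8), had 788.4, 734.9, 508.3 and 465.4 CPM in wt mice, so that the first wt pair lay above and the second below the 646 to 704.5 CPM of *Zmat3*-/- mice. TKO mice had 687.2, 739.8 and 815.4 CPM. Its log2FC against wt mice was 0.12 (standard error 0.176) in *Zmat3*-/- and 0.22 (standard error 0.216) in TKO mice, and neither was called.

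*Btg3*, on chromosome 16 from 78332637 to 78377192 (ENSMUSG00000022863.15), is the remaining BTG gene tested. Its level was 14.7 to 21.8 CPM (median 18.4) over wt mice, 15.8 to 19.6 CPM (median 17.8) over *Zmat3*-/- mice and 19.4 to 21.9 CPM (median 19.7) over TKO mice, and the ranges of all groups overlapped. *Btg4*, the family gene of oocytes, had at most 2 counts in any mouse and was not tested. The pseudogenes *Btg1-ps1* and *Btg1-ps2* had 0 counts in all mice, which allows up to 3 counts each, or 0.0374 to 0.170 CPM by library.

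The deadenylase genes overlapped between genotypes. *Cnot7*, on chromosome 8 from 40492540 to 40515847 (ENSMUSG00000031601.16), had 84.8, 104.6, 130.9 and 131.1 CPM in wt mice 1 to 4, 110.2 to 123.3 CPM in *Zmat3*-/- mice and 120.7 to 135.7 CPM in TKO mice. *Cnot8*, on chromosome 11 from 58104153 to 58118594 (ENSMUSG00000020515.13), had 198.2, 187.4, 139.1 and 126 CPM in wt mice 1 to 4, 123.4 to 136.4 CPM in *Zmat3*-/- mice and 125.3 to 154.5 CPM in TKO mice. In wt mice 1 and 2 *Cnot7* was lower and *Cnot8* higher than in wt mice 3 and 4, and the means of both mutant groups lay closer to the second pair. For *Cnot7* the log2FC was 0.03 (standard error 0.155) in *Zmat3*-/- against wt mice, and for *Cnot8* it was −0.30 (standard error 0.147). In TKO against wt mice it was 0.13 (standard error 0.181) and −0.28 (standard error 0.179), and none of these was called.

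**Figure D1:**
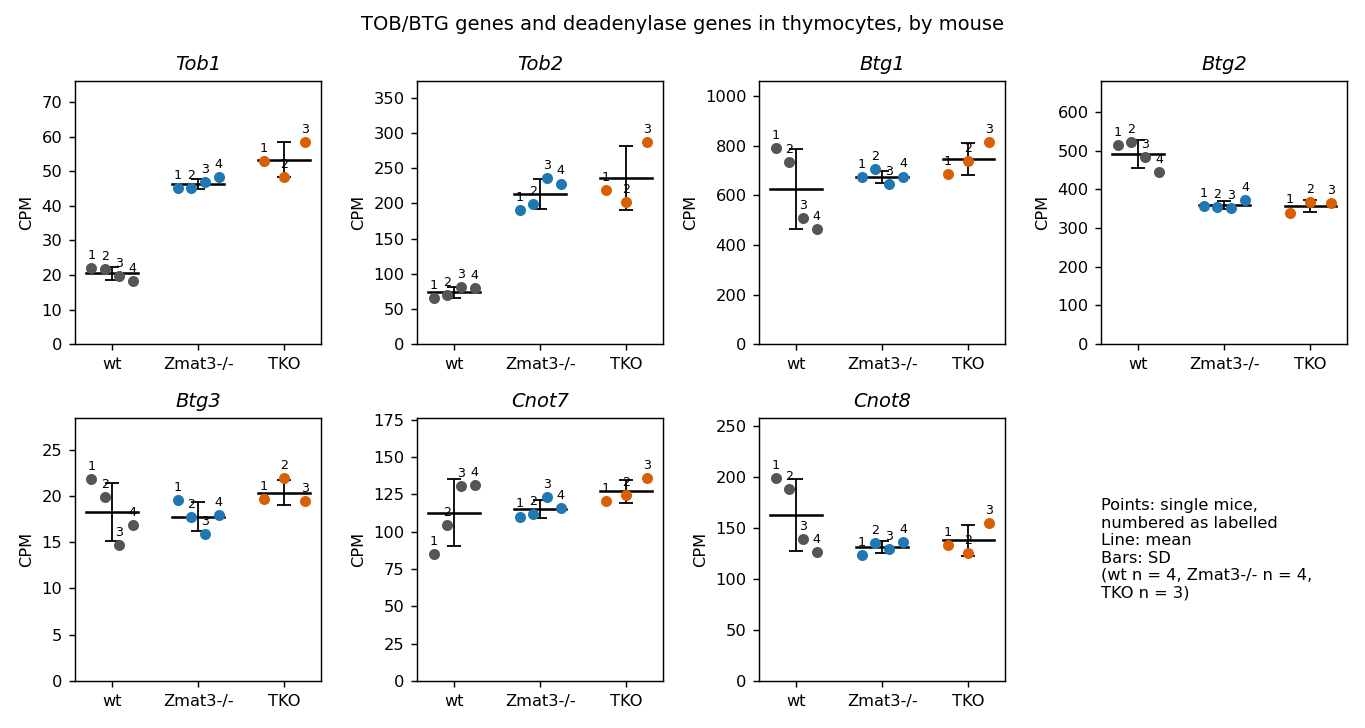
Normalised level (CPM, linear axes from 0) of the 7 genes in each mouse, grouped as 4 wt, 4 Zmat3-/- and 3 TKO mice, with the mean as a line and the SD as bars and each point marked with the mouse's number. *Tob1* lies at 18.2 to 22.2 CPM in wt and 45.1 to 58.6 CPM in mutant mice, *Tob2* at 65.7 to 81.3 against 190.9 to 287.6 CPM, *Btg2* is lower in all mutant mice, and wt mice 1 and 2 stand apart from wt mice 3 and 4 for *Btg1*, *Cnot7* and *Cnot8*.

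Counted over the members, edgeR called 2 of 7 different in *Zmat3*-/- against wt mice, where 0.763% of the 13494 genes tested were called, and 2 of 7 in TKO against wt mice, where 0.294% of 13260 were called. In both comparisons these were *Tob1* and *Tob2*, both higher. With an absolute log2FC above 1.5 also required, *Tob2* alone was called, against a background of 0.319% and 0.241% of genes. The groups' ranges did not overlap for 3 of 7 members in each comparison (*Tob1* and *Tob2* above and *Btg2* below wt), against 14.1% of all genes in *Zmat3*-/- and 12.1% in TKO against wt mice. Since the members were chosen with these contrasts known, nothing is read from their counts. The members' median log2FC was 0.03 and 0.13, and that of all genes −0.03 and −0.04. With the replicate number as a block, which pairs each *Zmat3*-/- with a wt mouse by the numbers in their titles, 12 genes were called in place of 103. Leaving out any mouse except wt mouse 1 brought the 103 down to between 17 and 46, and leaving out a TKO mouse brought the 39 genes called in TKO against wt mice to 16 or 18.

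**Figure D2:**
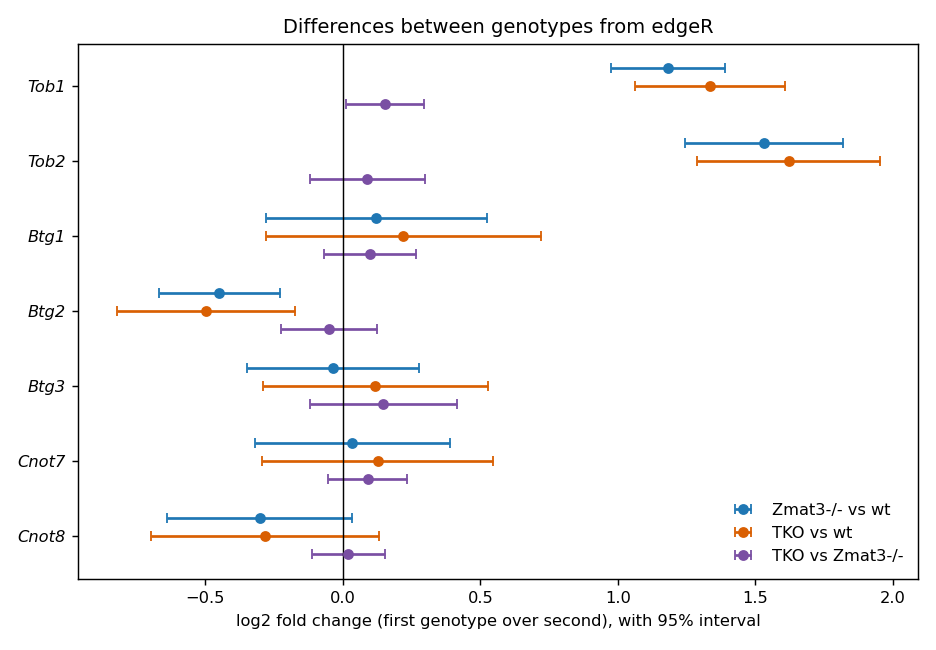
Log2 fold change of each gene from edgeR, with its 95% interval, in Zmat3-/- against wt (4 and 4 mice), TKO against wt (3 and 4) and TKO against Zmat3-/- mice (3 and 4). *Tob1* (1.18 and 1.33) and *Tob2* (1.53 and 1.62) lie to the right of 0 and *Btg2* (−0.45 and −0.50) to the left in both comparisons with wt mice, which share the wt mice, and the differences between TKO and Zmat3-/- mice lie between −0.05 and 0.15.

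Each of these differences was recomputed without a wt pair. The fits without wt mice 1 and 2 called 33.0% of all genes in *Zmat3*-/- and 8.15% in TKO mice, and those without wt mice 3 and 4 called 56.1% and 43.6%, so that counts of called genes in them are read against these shares. Against wt mice 3 and 4 alone, the log2FC of *Tob1* in *Zmat3*-/- mice was 1.27 and that of *Tob2* 1.39, and against wt mice 1 and 2 alone they were 1.09 and 1.68. In TKO mice the values were 1.43 and 1.48 against the second pair and 1.25 and 1.78 against the first. *Btg2* was lower in all 4 fits, by −0.39 and −0.52 in *Zmat3*-/- and by −0.43 and −0.56 in TKO mice. The signs of *Btg1*, *Btg3* and *Cnot7* turned with the pair. *Btg1* was at 0.45 against wt mice 3 and 4 but at −0.16 against wt mice 1 and 2 in *Zmat3*-/- mice, and at 0.56 and −0.05 in TKO mice. *Btg3* was at 0.15 and −0.21 in *Zmat3*-/- and at 0.31 and −0.05 in TKO mice, in the same order. *Cnot7* was at −0.20 and 0.30 in *Zmat3*-/- and at −0.10 and 0.40 in TKO mice, and both values in *Zmat3*-/- mice passed the threshold, in opposite directions. *Cnot8* was below 0 in these 4 fits, at −0.04 and −0.54 in *Zmat3*-/- and at −0.008 and −0.51 in TKO mice. Mice were also compared only within a class of *Xist* level. Among wt mice the high class is wt mice 1 and 2 and the low class wt mice 3 and 4. These ratios therefore reuse the wt pairs, and in wt mice the split cannot be told apart from the *Xist* class. The log2 ratio of mean CPM for *Tob2* in *Zmat3*-/- over wt mice was 1.53 among the high and 1.52 among the low mice, and that for *Tob1* 1.03 and 1.32. In TKO over wt mice, with a single TKO mouse in the high class, the ratio was 1.70 and 1.60 for *Tob2* and 1.27 and 1.49 for *Tob1*. The ratio for *Btg2* was −0.55 and −0.36 in *Zmat3*-/- mice and −0.61 and −0.34 in TKO mice. For the other members it turned sign between the classes, from −0.15 to 0.44 for *Btg1*, −0.16 to 0.098 for *Btg3*, 0.23 to −0.13 for *Cnot7* and −0.58 to 0.0049 for *Cnot8* in *Zmat3*-/- mice. In TKO mice it went from −0.15 to 0.68, −0.079 to 0.39, 0.35 to −0.0085 and −0.53 to 0.078 for the same genes.

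Most thymocyte markers had a log2FC below 0 against wt mice. The summed level of the thymocyte markers was 13330 to 14910 CPM over wt mice, 12100 to 14150 CPM over *Zmat3*-/- mice and 12950 to 16910 CPM over TKO mice. Of the 11 markers, 9 had a log2FC below 0 in each comparison with wt mice, with medians of −0.29 and −0.20. These medians were −0.13 and −0.04 without wt mice 1 and 2, with 6 markers below 0, and −0.42 and −0.32 without wt mice 3 and 4. With all mice 3 were lower at an unadjusted p under 0.05 in *Zmat3*-/- mice (lowest adjusted p = 0.0966 from edgeR). The myeloid markers summed to 222 to 400 CPM over wt mice, 317 to 423 CPM over *Zmat3*-/- mice and 216 to 475 CPM over TKO mice. Of these 8, 2 were higher at an unadjusted p under 0.05 in *Zmat3*-/- mice (lowest adjusted p = 0.0528 from edgeR). DESeq2, with 8.04% of all genes called in *Zmat3*-/- mice, called 3 thymocyte markers lower, 2 myeloid markers higher, and 1 stroma marker higher and 1 lower, and none in TKO mice. With 1 surrogate variable (17.1%), 2 thymocyte markers were called lower and the myeloid and stroma counts were as with DESeq2. In *Zmat3*-/- mice, 7 myeloid markers were called higher, 3 thymocyte markers lower, and 5 thymic stroma markers higher and 1 lower of 9 tested without wt mice 1 and 2. Without wt mice 3 and 4, 2 myeloid markers were called higher and 2 lower, 1 thymocyte marker higher and 8 lower, 1 stroma marker higher and 3 lower, 2 of 4 erythroid markers higher, 2 of 5 B cell markers lower and 1 of 4 neutrophil markers lower. In TKO mice no marker of these 6 lists was called without wt mice 1 and 2, at medians near those in *Zmat3*-/- mice: 0.63 beside 0.68 for myeloid, 0.80 beside 0.94 for stroma and −0.71 beside −0.70 for erythroid markers. Without wt mice 3 and 4, 4 of 4 erythroid markers were called higher (median 1.72), 1 thymocyte marker higher and 3 lower, 1 stroma and 1 B cell marker lower, and no myeloid or neutrophil marker. The part of these markers in the levels of *Tob1* and *Tob2* was not tested.

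TKO and *Zmat3*-/- mice differ by the loss of PUMA and p21, and the members were not drawn from this contrast, although the mice are the same. No member was called by edgeR's quasi-likelihood test, where 0.221% of 13124 genes were called, and 0.122% with the fold threshold. DESeq2, which called 0.556% of all genes, called none of the members either, and *Tob1* alone had an unadjusted p under 0.05. *Tob1* was higher in TKO mice by a log2FC of 0.15 (95% interval 0.01 to 0.30, adjusted p = 0.983 from edgeR), and its ranges in the 2 genotypes did not overlap, as was true of 1 of 7 members and 4.91% of all genes. *Tob2* differed by 0.09 (95% interval −0.12 to 0.30), *Btg1* by 0.10 (−0.07 to 0.26), *Btg2* by −0.05 (−0.23 to 0.12) and *Btg3* by 0.15 (−0.12 to 0.41). *Cnot7* differed by 0.09 (−0.05 to 0.23) and *Cnot8* by 0.02 (−0.11 to 0.15). The adjusted p of these 6 genes was 0.983 to 0.985 in edgeR. The value for *Btg3* rested on single mice, at 0.06 without TKO mouse 2 and 0.26 without TKO mouse 3. That for *Tob2* ran from 0.02 to 0.16 with each mouse left out. A p that misses the threshold does not show that the genotypes were alike. The median log2FC of the members was 0.09 and that of all genes tested −0.01.

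Levels of different genes can be compared only per length. As CPM per kb of annotated exon, *Btg2* was highest in wt mice (179 ± 13.1, SD, n = 4), followed by *Btg1* (118 ± 30.5), *Cnot8* (61.7 ± 13.5), *Cnot7* (19.4 ± 3.86), *Tob2* (11.1 ± 1.16), *Tob1* (8.96 ± 0.818) and *Btg3* (4.56 ± 0.784). No 2 neighbours in this order overlapped in range among wt mice. In *Zmat3*-/- mice *Btg2* (131 ± 3.68) and *Btg1* (128 ± 4.53) overlapped, *Tob2* (32.0 ± 3.26) stood above *Cnot7* (19.8 ± 1.01), and *Tob1* (20.3 ± 0.669) overlapped *Cnot7*. In TKO mice *Btg1* (142 ± 12.2, n = 3) and *Btg2* (130 ± 5.44) overlapped, and *Tob1* (23.3 ± 2.21) overlapped *Cnot7* (21.8 ± 1.33). The order depends on the length used. Per kb of the transcript with the longest coding sequence, *Btg3* (12.9 ± 2.22 in wt mice) stood above *Tob1* (8.96 ± 0.818), and *Cnot7* (38.7 ± 1.97 in *Zmat3*-/- mice) stayed above *Tob1* (20.3 ± 0.669) but below *Tob2* (51.4 ± 5.23).

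**Figure D3:**
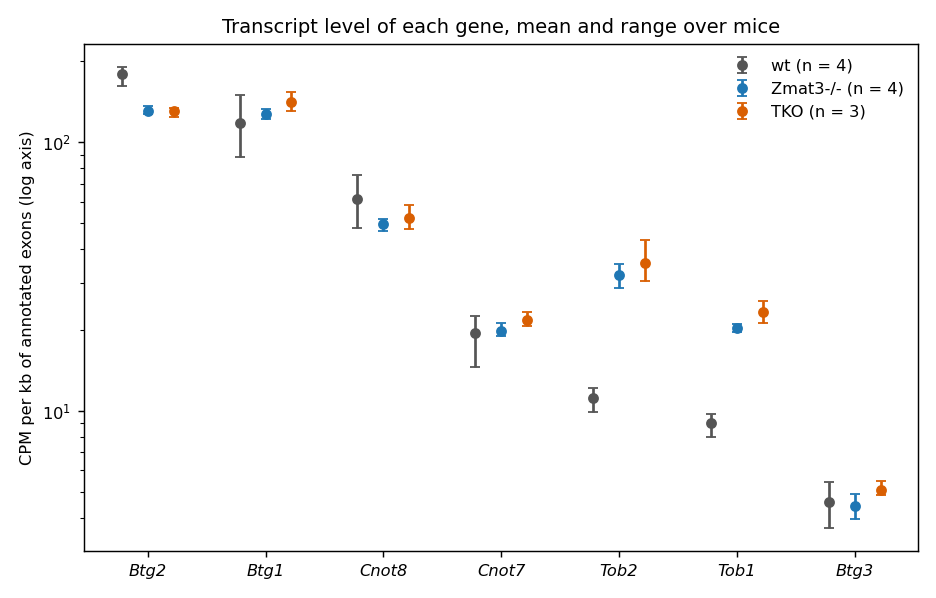
Level of each gene in CPM per kb of annotated exon on a log axis, as the mean (point) and the range (bars) over 4 wt, 4 Zmat3-/- and 3 TKO mice, ordered by the wt mean. *Btg2* and *Btg1* lie highest (179 and 118 in wt mice), *Btg3* lowest (4.56), and *Tob2* moves from 11.1 in wt to 32.0 and 35.5 in the mutants, past *Cnot7*.

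The make-up of the family differed between wt and mutant mice, while its summed level overlapped. The summed CPM per kb of the 5 family genes ran from 274 to 362 over wt mice, from 310 to 324 over *Zmat3*-/- mice and from 315 to 361 over TKO mice, so the groups overlapped. *Tob1* and *Tob2* together made up 5.39, 5.62, 7.01 and 7.27% of that sum in wt mice 1 to 4, 15.6 to 18.0% in *Zmat3*-/- mice and 15.6 to 19.1% in TKO mice. The ratio of *Btg1* to *Btg2* was 0.795, 0.731, 0.546 and 0.545 in wt mice, 0.941 to 1.04 in *Zmat3*-/- mice and 1.05 to 1.17 in TKO mice. The ratio of *Cnot7* to *Cnot8* was 0.194 and 0.253 in wt mice 1 and 2 and 0.426 and 0.471 in wt mice 3 and 4. In the mutants it was 0.375 to 0.451, within the range of wt mice. Like the levels they are made of, these shares and ratios against wt mice are descriptions without a test.

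The transcripts of the members share a feature that the choice of names did not use. The 3′ UTR of every member's longest coding transcript holds the AU-rich pentamer ATTTA, 11 times in *Btg1*, 5 times in *Btg2*, 4 times in each of *Tob2*, *Btg3* and *Cnot7*, and 3 times in each of *Tob1* and *Cnot8*. Among 11741 3′ UTRs of tested coding genes, 65.9% hold at least 1, with a median of 1.20 per kb, against 1.63 per kb in *Tob2* and 9.11 per kb in *Btg3*, the lowest and highest member. The AU-rich nonamer TTATTTATT, present in 7.12% of 3′ UTRs, occurs in no member. The 3′ UTRs are long in *Btg1* (4166 bases), *Tob2* (2457) and *Btg2* (2199) and shorter in *Tob1* (767) and *Btg3* (439), where the median over genes is 963 bases.

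The machinery that TOB and BTG proteins work with was listed with earlier results of these mice known too, so its calls are not independent evidence. Of 49 other genes of deadenylation and decay, 48 were tested in *Zmat3*-/- against wt mice, and edgeR called 1 higher and 0 lower, which is 2.08% of the list beside 0.763% of all genes. In TKO against wt mice 47 were tested, and again 1 was called higher and 0 lower, 2.13% beside 0.294%. DESeq2, with 8.04% and 2.87% of all genes called, called 3 higher and 1 lower in *Zmat3*-/- mice, with *Edc3*, *Pabpc1* and *Pabpn1* beside the gene called by edgeR, and 1 in TKO mice. With 1 surrogate variable, and 17.1% and 0.151% of all genes called, 16 were called higher and 1 lower in *Zmat3*-/- mice and 0 in TKO mice. In edgeR *Pabpc1*, the poly(A)-binding protein that TOB proteins bind, was at a log2FC of 0.28 (adjusted p = 0.241) and 0.32 (adjusted p = 0.497). The gene called by edgeR was *Zfp36l2* in both, which encodes an RNA-binding protein that recruits CCR4-NOT to AU-rich mRNAs. It had 179.6, 177, 185.3 and 177.5 CPM in wt mice, 382.9, 410.3, 566.8 and 537.9 CPM in *Zmat3*-/- mice and 371.9, 587.9 and 679.5 CPM in TKO mice. The 4 wt mice were close together for this gene, with neither pair apart. Its mutant mice did separate by *Xist* class. Those with high *Xist* (*Zmat3*-/- mice 1 and 2 and TKO mouse 1) were at 371.9 to 410.3 CPM, and those with low *Xist* at 537.9 to 679.5 CPM. The part of this class in its level was not tested. The log2FC was 1.405 (adjusted p = 0.00691 in the edgeR test, standard error 0.150, 4 of 4 mice above wt) in *Zmat3*-/- and 1.551 (adjusted p = 0.0246 in the edgeR test, standard error 0.191, 3 of 3 mice above wt) in TKO against wt mice. The call in *Zmat3*-/- mice was lost with the replicate block (adjusted p = 0.056 from edgeR) at a log2FC of 1.38. The call in TKO mice was lost with the block (adjusted p = 0.16 from edgeR) at 1.52, although the replicate numbers pair nothing in this comparison. It was also lost with 1 surrogate variable (adjusted p = 0.0984 from edgeR) at 1.56. Leaving out wt mouse 2, 3 or 4 or TKO mouse 2 or 3 lost it too (edgeR adjusted p = 0.0767 to 0.162), with the log2FC between 1.44 and 1.57. Without wt mice 1 and 2 the log2FC was 1.37 in *Zmat3*-/- and 1.52 in TKO mice, and without wt mice 3 and 4 it was 1.43 and 1.59. Its paralogues, chosen after their values were seen, were at a log2FC of 0.53 (*Zfp36*, adjusted p = 0.358) and 0.39 (*Zfp36l1*, adjusted p = 0.241) in the edgeR test of *Zmat3*-/- against wt mice.

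With all mice, neither the main pairwise edgeR fits nor DESeq2 called another subunit of CCR4-NOT in either comparison with wt mice. The 10 subunits tested had a median log2FC of 0.05 in *Zmat3*-/- and 0.10 in TKO mice, with a lowest adjusted p of 0.341 and 0.656 in edgeR. With 1 surrogate variable, when 17.1% of all genes were called, edgeR called *Cnot1* and *Cnot2* in *Zmat3*-/- mice. Without wt mice 1 and 2, 1 subunit (*Cnot3*, lower) was called in *Zmat3*-/- and 0 in TKO mice, with medians of −0.0066 and −0.0063, and without wt mice 3 and 4, 4 were called higher and 2 lower in *Zmat3*-/- and 3 higher in TKO mice, with medians of 0.11 and 0.17. The scaffold *Cnot1*, chosen after its values were seen, had 209 and 243.8 CPM in wt mice 1 and 2, 564.8 and 545 CPM in wt mice 3 and 4, 506.3 to 546 CPM in *Zmat3*-/- mice and 494.9 to 706.5 CPM in TKO mice. Its wt pairs differed by more than wt mice 3 and 4 did from the mutants. *Cnot6* and *Cnot6l*, which encode the second kind of deadenylase subunit, were at a log2FC of 0.27 and 0.29 in *Zmat3*-/- mice (adjusted p = 0.564 and 0.433 from edgeR). The medians of the other groups in *Zmat3*-/- and TKO against wt mice were 0.11 and −0.07 for 8 other deadenylases, −0.12 and −0.09 for 5 poly(A)-binding proteins and their partners, and 0.10 and 0.16 for 11 decapping and decay factors. They were 0.27 and 0.38 for the adaptors that recruit CCR4-NOT, 14 and 13 of which were tested. The adaptors' medians were −0.03 and 0.08 without wt mice 1 and 2, and without wt mice 3 and 4 they were 0.62 and 0.75. Those of the other 3 groups lay between −0.08 and 0.09 without wt mice 1 and 2 and between −0.32 and 0.29 without wt mice 3 and 4. Over the whole decay list the median was 0.13 and 0.16, beside −0.03 and −0.04 for all genes. Without wt mice 1 and 2, when 33.0% and 8.15% of all genes were called, the decay genes called were 7 higher and 7 lower of 49 in *Zmat3*-/- and 3 higher and 2 lower of 48 in TKO mice, with medians of 0.0006 and 0.05. Without wt mice 3 and 4, when 56.1% and 43.6% of all genes were called, they were 27 higher and 6 lower, and 22 higher and 2 lower, with medians of 0.43 and 0.41.

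Between TKO and *Zmat3*-/- mice edgeR called none of 48 decay genes, with 4 at an unadjusted p under 0.05, and the median log2FC was 0.05. DESeq2 called *Noct*, a circadian gene whose protein is related to the deadenylases. *Noct* had 271.5, 251.7, 262.4 and 258.5 CPM in *Zmat3*-/- and 431.3, 354.2 and 374 CPM in TKO mice, without overlap, at a log2FC of 0.52 (adjusted p = 0.104 from edgeR). In wt mice it had 63.2, 97.7, 213.9 and 229.8 CPM. Leaving out TKO mouse 3 also brought *Noct* past the threshold.

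**Figure D4:**
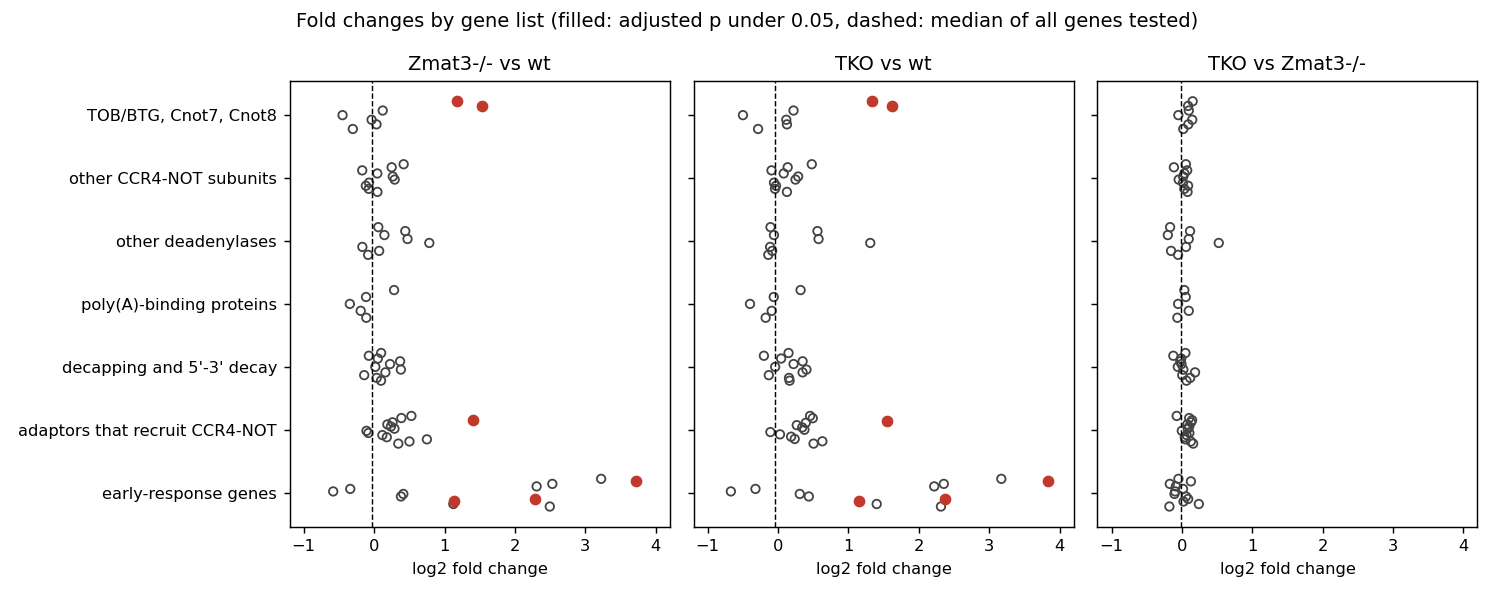
Log2 fold change of every tested gene of the member list, 5 groups of decay genes and the early-response list in the 3 comparisons, with the median of all tested genes dashed (−0.03, −0.04 and −0.01) and genes at an adjusted p under 0.05 filled. *Zfp36l2* is the filled gene among the adaptors (1.405 and 1.551), *Tob1* and *Tob2* are filled against wt mice, and no listed gene is filled between TKO and Zmat3-/- mice.

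Early-response genes, which cells transcribe soon after a stimulus, were listed with earlier results of these mice known, so their calls are not independent evidence. Of 12 listed, 10 had a log2FC above 0 in each comparison with wt mice, where 6316 of 13494 and 6068 of 13260 tested genes did. In each, edgeR called 3 higher and 0 lower, beside 0.763% and 0.294% of all genes. The median log2FC was 1.71 in *Zmat3*-/- and 1.81 in TKO mice. The called genes were *Fosb*, *Dusp1* and *Nr4a1*, and *Fosb*, a subunit of AP-1, rose most. Its level was 1.96 to 4.42 CPM over wt mice, 23.2 to 46.5 CPM over *Zmat3*-/- mice and 18.9 to 61.3 CPM over TKO mice, with log2FC values of 3.73 (adjusted p = 0.00226 in edgeR, standard error 0.326) and 3.84 (adjusted p = 0.0146 in edgeR, standard error 0.433). *Dusp1*, a phosphatase that inactivates MAP kinases, was at 2.28 (adjusted p = 0.0148) and 2.37 (adjusted p = 0.035) in the same edgeR tests. *Egr1* and *Egr2*, transcription factors of the T cell receptor response, were the 2 listed genes below 0. *Egr1* was at −0.34 (adjusted p = 0.15) and −0.32 (adjusted p = 0.435), and *Egr2* at −0.58 (adjusted p = 0.0856) and −0.67 (adjusted p = 0.241), in the same edgeR tests. DESeq2, with 8.04% and 2.87% of all genes called, called 7 of the 12 higher and 2 lower (*Egr1* and *Egr2*) in *Zmat3*-/- mice. In TKO mice it called 6 higher and 1 lower (*Egr2*). The edgeR fit of all 3 genotypes, with 1.77% and 1.63% of all genes called, called 4 higher in *Zmat3*-/- mice. In TKO mice it called 3 higher and 1 lower (*Egr2*). In the edgeR fits that left out 1 mouse, 1 to 3 of these genes were called in *Zmat3*-/- and 0 to 3 in TKO against wt mice. The lowest counts came without *Zmat3*-/- mouse 1, 2 or 4 (*Fosb* alone) and without TKO mouse 1 or 3 (none). With the block, *Fosb* alone was called in *Zmat3*-/- mice and none in TKO mice, where the replicate numbers pair nothing. With 1 surrogate variable, 10 were called higher and 2 lower in *Zmat3*-/- mice, when 17.1% of all genes were called, and *Fosb* alone in TKO mice, when 0.151% were. Without wt mice 1 and 2, 10 were called higher and 2 lower in *Zmat3*-/- and 10 higher and 1 lower in TKO mice, when 33.0% and 8.15% of all genes were called, and the medians were 2.79 and 2.97. Without wt mice 3 and 4, 7 were called higher and 2 lower in *Zmat3*-/- and 7 higher and 1 lower in TKO mice, when 56.1% and 43.6% of all genes were called, and the medians were 1.22 and 1.20. Between TKO and *Zmat3*-/- mice none was called, with the median at −0.02.

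The summed level of the 12 genes was 784 and 753 CPM in wt mice 1 and 2, 320 and 339 CPM in wt mice 3 and 4, 1460 to 1852 CPM in *Zmat3*-/- mice and 1414 to 1861 CPM in TKO mice. *Tob1* and *Tob2* were likewise higher in all mutant than in all wt mice. Within wt mice they did not follow the sum together: the pair with the higher sum had the higher *Tob1* (22.02 against 19.0 CPM on average) and the lower *Tob2* (67.5 against 80.6 CPM). The part of the early response in the levels of *Tob1* and *Tob2* was not tested.

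**Figure D5:**
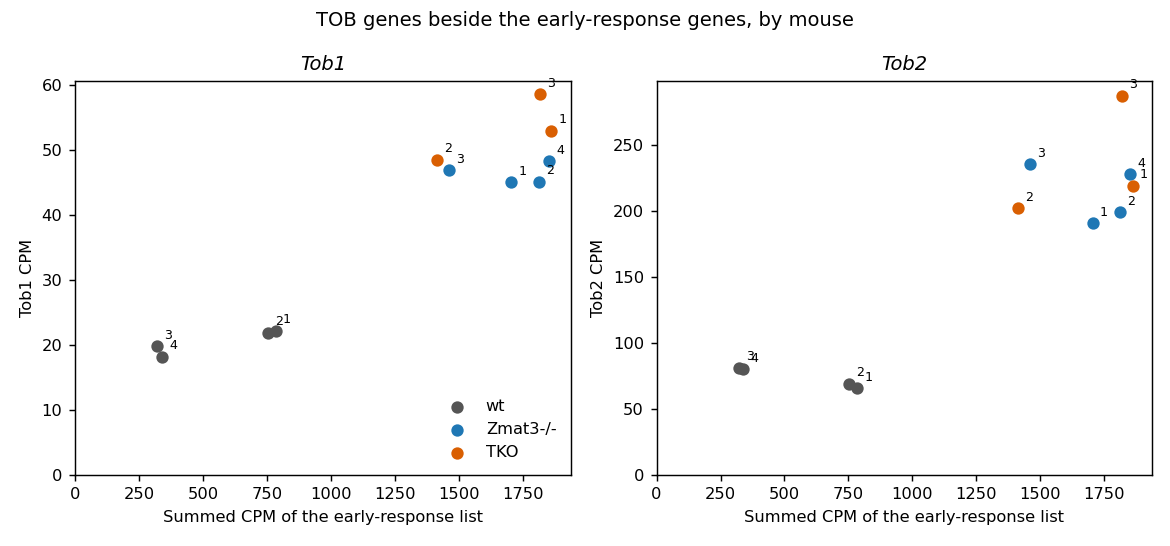
CPM of *Tob1* (left) and *Tob2* (right) against the summed CPM of 12 early-response genes in each of 4 wt, 4 Zmat3-/- and 3 TKO mice, numbered by mouse. The wt mice lie at sums of 320 to 784 CPM and all mutant mice at 1414 to 1861 CPM with higher *Tob1* and *Tob2*, and among wt mice *Tob2* is lower in mice 1 and 2, which have the higher sums.

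In the main pairwise edgeR fits with all mice, no gene of the states that TOB and BTG proteins control was called in any comparison. Of 11 genes of T cell quiescence, 8 had a log2FC above 0 in *Zmat3*-/- and in TKO against wt mice, with medians of 0.27 and 0.07 and a lowest adjusted p of 0.123 and 0.336 in edgeR. At an unadjusted p under 0.05, 3 were higher and 1 lower in *Zmat3*-/-, and 2 higher in TKO mice. Without wt mice 1 and 2 the medians were 0.10 and −0.02. In these fits 3 were called higher and 1 lower in *Zmat3*-/- and 1 higher and 1 lower in TKO mice, beside 33.0% and 8.15% of all genes. Without wt mice 3 and 4 the medians were 0.32 and 0.21. Here 6 were called higher and 2 lower in *Zmat3*-/- and 4 higher and 2 lower in TKO mice, beside 56.1% and 43.6% of all genes. DESeq2, with 8.04% and 2.87% of all genes called, called *Foxo1* and *Foxo3*, transcription factors that hold T cells quiescent, higher in both comparisons. With 1 surrogate variable, beside 17.1% of all genes, 4 were called higher in *Zmat3*-/- mice. The edgeR fit of all 3 genotypes called 1 higher in TKO mice, beside 1.63% of all genes. Of 18 proliferation genes, 9 and 6 had a log2FC above 0, with medians of −0.01 and −0.07 and a lowest adjusted p of 0.285 and 0.500 in edgeR. The sign of their median turned with the wt pair. Without wt mice 1 and 2 it was 0.22 and 0.15, with 5 and 0 genes called, all higher. Without wt mice 3 and 4 it was −0.20 and −0.24, with 1 higher and 6 lower and with 0 higher and 5 lower. The shares of all genes called in these fits are those given above for the quiescence genes. With 1 surrogate variable 3 were called higher in *Zmat3*-/- mice, and DESeq2 called none in either comparison, with 8.04% and 2.87% of all genes called. Their summed level ran from 3928 to 6029 CPM over wt mice, from 3708 to 4820 CPM over *Zmat3*-/- mice and from 3733 to 6053 CPM over TKO mice. Of 7 partners of TOB and BTG proteins outside decay, such as SMAD proteins and PRMT1, 5 were tested, with medians of 0.16 and 0.23. The main pairwise edgeR fits with all mice called none, whereas DESeq2 and the fit with 1 surrogate variable each called 1 of these partners higher in *Zmat3*-/- mice. Their medians were 0.03 and 0.17 without wt mice 1 and 2 and 0.35 and 0.50 without wt mice 3 and 4.

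Over the 11 mice, the gene whose log2 CPM was most like that of *Tob1* among 12957 others was *1810026B05Rik* (Pearson r = 0.986), followed by *Otud1* (0.985) and *Trib1* (0.984). For *Tob2* they were *Tnfaip3*, an inhibitor of NF-κB signalling (0.994), *Cited2* (0.993) and *Sik1*, a kinase induced by cyclic AMP (0.985). *Trib1* was at a log2FC of 2.04 and 2.14, *Tnfaip3* at 1.80 and 1.95, *Cited2* at 1.08 and 1.13 and *Sik1* at 2.90 and 3.09 in *Zmat3*-/- and TKO against wt mice. *Tob1* and *Tob2* correlated with each other at 0.973, and 12 genes were more like *Tob1* than *Tob2* was. *Btg2* correlated at −0.912 with *Tob1* and −0.952 with *Tob2*. Its own closest genes were *Rnf181* (0.974), *AI467606* (0.965) and *Cox17* (0.963). Those of *Btg1* were *Zfp622* (0.977), *Vps37b* (0.976) and *Rfxap* (0.976), and those of *Btg3* were *Irgm1* (0.935), *Tusc1* (0.914) and *Tgtp2* (0.909). *Cnot7* was most like *Lpgat1* (0.979), *Atxn3* (0.978) and *Resf1* (0.974), and *Cnot8* most like *Rpf1* (0.990), *Tor2a* (0.987) and *Lysmd1* (0.986). *Cnot7* and *Cnot8* correlated at −0.675. These values describe 11 mice of 3 genotypes that share the split of the wt mice, and they have no test.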

How the data were processed

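Thymocyte RNA-seq of 4 wt, 4 *Zmat3*-/- and 3 TKO mice was used, made from 100 ng of RNA per library. The authors ran Salmon within nf-core/rnaseq (GRCm38.p6, GENCODE vM25) and deposited estimated counts per gene, 1 column per mouse, unnormalised and in whole numbers, so rounding changed none. Splitting reads between similar transcripts is Salmon's estimate, and the kit does not mark strand. Of 54418 gene identifiers, 54166 were matched to GENCODE M21 and 252 were not.

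The 7 members and all gene lists were chosen with earlier results of these data known. In R 4.3.3, edgeR 4.0.16 with limma 3.58.1 compared genotypes in pairs by the two-sided quasi-likelihood F-test on TMM-scaled libraries. P-values were adjusted by Benjamini-Hochberg over all genes tested and genes called at an adjusted p under 0.05. A gene was tested if it reached 20 counts on the scale of the smallest library in a number of mice equal to the smaller group. The study words its minimum in CPM, which read literally is stricter, and also dropped obsolete Entrez identifiers, which was not done here. After its methods, 1628 genes (*Xist*, those of chromosome Y, rRNA and immunoglobulin genes without coding sequence) were not tested. Standard errors were obtained by dividing the size of the log2FC by the root of F. CPM uses TMM factors over all 11 mice, and log2 CPM a prior count of 2. At 3 counts a library could show 0.0374 to 0.170 CPM, and such floors cover counting error only. Replicate numbers in the sample titles were taken to pair *Zmat3*-/- with wt mice because deviations from group means correlated above 0.1 for each number (0.364, 0.128, 0.265 and 0.316 for numbers 1 to 4). Mice 1 and 2 correlated more with the other number of their *Xist* class (0.400 and 0.182), so the numbers partly follow that class. In the comparisons with TKO mice at least 1 pair was under 0.1, so those numbers pair nothing.

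Named genes were all members, *Btg4*, copies named as pseudogenes, the targeted genes, the 2 called genes of largest log2FC per list and comparison, and the 3 genes most like each member. Genes named for their role or paralogy (*Cnot1*, *Cnot6*, *Cnot6l*, *Zfp36*, *Zfp36l1*), *Noct*, *Nr4a1*, *Egr1* and *Egr2*, and *Cnot2*, *Cnot3*, *Edc3*, *Pabpc1*, *Pabpn1*, *Foxo1* and *Foxo3*, were added after their values were seen. Promoters are RefSeq's on GRCm38.p6. Lengths and UTRs are those of GENCODE M21. Alternatives were DESeq2 1.42.0, RLE size factors, other filters, all genotypes in 1 fit, the replicate block, 1 surrogate variable (sva 3.50.0), the *Xist* level in place of the sex the labels do not give, an absolute log2FC above 1.5, and each mouse left out. Leaving out a wt pair and comparing within *Xist* classes were added after seeing the data. The edgeR steps were tested on simulated counts.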

Additional observations from a re-analysis of the deposited data

How the results depend on the processing

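The members were chosen on the comparisons with wt mice, so their calls there are a description. *Tob1* and *Tob2* were called in them under every alternative at any fold except 1: with the replicate number as a block, which pairs nothing in TKO against wt mice, 1 member was called (*Tob2*, *Tob1* being at a log2FC of 1.29). With an absolute log2FC above 1.5, 1 member was called in each comparison with wt mice and 0 decay genes in *Zmat3*-/- mice. Without wt mice 1 and 2, 5 members were called in *Zmat3*-/- (3 higher, 2 lower, with 33.0% of all genes called) and 4 in TKO mice (3 higher, 1 lower, with 8.15%). Without wt mice 3 and 4, 5 were called in each (3 higher, 2 lower, with 56.1% and 43.6%). With DESeq2, 3 members were called in each comparison with wt mice (*Tob1* and *Tob2* higher, *Btg2* lower), beside 8.04% and 2.87% of all genes, and with 1 surrogate variable the same 3 in *Zmat3*-/- mice. The decay genes called in *Zmat3*-/- against wt mice were 4 with DESeq2 (8.04% of all genes called), 0 with the replicate block (0.0889%), 17 with 1 surrogate variable (17.1%), and 14 and 33 without the first and the second wt pair. In TKO against wt mice they were 0 with the block (0.121%) or 1 surrogate variable (0.151%), 5 and 24 without a wt pair, and 0 to 1 with each mouse left out. Between TKO and *Zmat3*-/- mice 1 decay gene was called with DESeq2 and with no filter, and 0 to 1 with each mouse left out. No member was called between TKO and *Zmat3*-/- mice under any alternative. The cause of these shifts was not tested. The block changed no other member's call, and it lowered the genes called to 12, 16 and 21 in *Zmat3*-/- against wt, TKO against wt and TKO against *Zmat3*-/- mice.

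The log2FC turned sign for *Btg1* without wt mice 3 and 4 (−0.16 in *Zmat3*-/- and −0.049 in TKO against wt mice) and for *Btg3* in *Zmat3*-/- against wt mice without wt mice 1 and 2 (0.15) and with each mouse left out (−0.12 to 0.052). It also turned for *Btg3* in TKO mice without wt mice 3 and 4 (−0.052), for *Cnot7* without wt mice 1 and 2 (−0.20 in *Zmat3*-/-, −0.10 in TKO mice) and with each mouse left out in *Zmat3*-/- mice (−0.086 to 0.12), and for *Btg2* between TKO and *Zmat3*-/- mice with each mouse left out (−0.11 to 0.017). None of these was called with all mice. The fewest counts of a member in 1 mouse were 354 (*Btg3*), and the shares of depth, group size and the wt split in the errors were not separated.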
